A study of Mus musculus with 4 samples.

Results

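Tcf7, Lef1, Satb1, Foxp1, Bach2 and Il7r, the 6 genes described here, were followed through the T cells of pancreas and pancreatic lymph node in mice with and without OCA-B in their T lineage. They were named by symbol, with earlier results of these data known, and all 6 were found among the 31053 genes that the deposited matrices list. All mice were pre-diabetic females with both Ocab alleles flanked by loxP sites (Ocabfl/fl). The control groups carried no Cre, and the CD4-Cre groups (Ocabfl/fl.CD4-Cre) also carried a Cre driven by Cd4 regulatory sequence, which acts in the thymus at a stage that gives rise to both CD4 and CD8 T cells. Each of the 4 groups was 1 library. Pancreas libraries came from CD45+ leukocytes sorted by flow cytometry from 4 mice per group at 12 weeks of age, and lymph node libraries from T cells held by CD3 magnetic separation from 5 mice per group at 8 weeks. Tissue therefore cannot be told apart from age, sorting method and mouse cohort, and genotypes were compared within a tissue. With 1 library per group no difference between genotypes has a replicate check, so no p-value is given. Intervals at the 95% level are exact and cover counting error only.

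In T cells these genes are known for the naive and long-lived state. Tcf7 (TCF-1) and Lef1 are related HMG-box factors that act with beta-catenin and keep T cells able to renew; Satb1 organises chromatin, Foxp1 is a forkhead factor of quiescence, and Bach2 is a repressor that holds back effector programmes. Il7r encodes the alpha chain of the interleukin-7 receptor, which pairs with the common gamma chain (Il2rg) and signals through Jak1, Jak3 and Stat5 for survival; regulatory T cells are known to carry little of it, and effector CD8 T cells to lose it.

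The member genes are protein coding and lie, on GRCm38, on chromosome 11 (Tcf7, 52252371 to 52283014), chromosome 3 (Lef1, 131110471 to 131224356), chromosome 17 (Satb1, 51736187 to 51833290), chromosome 6 (Foxp1, 98925338 to 99522721), chromosome 15 (Il7r, 9505788 to 9530176) and chromosome 4 (Bach2, 32238804 to 32586108). Their RefSeq promoter windows (GRCm38.p6, 250 bases before to 50 after a start) number 16. The octamer ATGCAAAT, the motif bound by the OCT factors that OCA-B joins, was in 0 of these 16 windows on either strand, and in 1.74% of all 32851 windows. CTTTGA, the core that TCF-1 and LEF1 recognise, was in 3 of the 16 and in 16% of all. The stretches with CTTTGA are shown because the factors that read it are themselves members. Capitals mark the core, which reads TCAAAG here since it lies on the opposite strand, and no stretch overlaps an annotated exon.
Lef1 chr3:131156094-131156139 (+): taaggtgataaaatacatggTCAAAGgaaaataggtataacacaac
Lef1 chr3:131156154-131156199 (+): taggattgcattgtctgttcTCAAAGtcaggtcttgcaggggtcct
Bach2 chr4:32417322-32417367 (+): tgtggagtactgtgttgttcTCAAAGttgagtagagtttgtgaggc
Foxp1 chr6:99266694-99266739 (−): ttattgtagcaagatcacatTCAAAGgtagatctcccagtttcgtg
The Lef1 pair shares 1 of the gene's 4 windows, 180 and 120 bases before an alternative start. The Bach2 match is 93 bases before a start and the Foxp1 match 204 bases before an alternative start. Each of these starts lies inside the gene span given above and not at its outer end. The forkhead letters TAAACA were in 5 of the 16 windows (of Tcf7, Lef1 and Foxp1) and in 13.4% of all. These letter matches are descriptions and say nothing of binding in these cells.

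Between 2848 and 6255 barcodes per library were kept, with a median of 3615 to 4625 UMIs, and 2065 to 5223 of them were T cells by a class rebuilt from expression. Between 15 and 57 kept barcodes were shared by any pair of libraries. CD4-only barcodes (with Cd4 UMIs but without any of Cd8a and Cd8b1) numbered 890 and 2026 in pancreas control and CD4-Cre and 1272 and 2674 in lymph node. CD8-only barcodes numbered 426, 633, 691 and 1464 in the same order, and T barcodes with a Foxp3 UMI 121, 209, 177 and 357. Pou2af1, the gene of OCA-B, stood at 6.15 CPM (the gene's UMIs, summed over barcodes, per 1e6 of all their UMIs; 21 UMIs) in pancreas control CD4-only barcodes against 0.899 CPM (7 UMIs) with CD4-Cre, and at 6.14 CPM (39 UMIs) against 0.0821 CPM (1 UMI) in lymph node. In CD8-only barcodes it was at 3.08 CPM (6 UMIs) and 0.337 CPM (1 UMI) in pancreas and 3.96 CPM (16 UMIs) and 0.238 CPM (2 UMIs) in lymph node, so CD4-only and CD8-only values match the labels. Foxp3-positive barcodes of pancreas were not lower with CD4-Cre, at 3.18 CPM (2 UMIs) in control and 3.6 CPM (4 UMIs) in CD4-Cre, and those of lymph node had 1 UMI and 0 UMIs, counts too few to check the deletion there. In pancreas B cells, where CD4-Cre is not expected to act, Pou2af1 was at 231 CPM in control and 245 CPM in CD4-Cre.

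In pancreas all 6 genes were lowest either in Foxp3-positive T cells or in CD8 T cells rich in Ccl5, and all but Foxp1 were highest in Foxp3-negative CD4 T cells of both libraries, in places with overlapping intervals. In lymph node the order differed by gene. Ccl5 is a chemokine that antigen-experienced CD8 T cells transcribe strongly, and CD8-only barcodes were divided at 2 Ccl5 UMIs. Lef1 had the widest spread in pancreas. In pancreas control it stood at 655 CPM in Foxp3-negative CD4-only barcodes, 548 CPM in CD8 barcodes under 2 Ccl5 UMIs, 186 CPM in Foxp3-positive barcodes and 120 CPM in CD8 barcodes with 2 or more, a 5.46-fold range. No neighbours in that order had overlapping intervals. Pancreas CD4-Cre gave 572, 539, 164 and 114 CPM for Lef1, with only the first 2 overlapping. In lymph node control the same classes stood at 850, 806, 324 and 385 CPM, and in lymph node CD4-Cre at 730, 669, 283 and 364 CPM. Lef1 was thus at the top in both Foxp3-negative CD4 and Ccl5-poor CD8 cells of every library, while the 2 low classes changed places between tissues, with overlapping intervals in lymph node.

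In pancreas control Tcf7 followed the same order over a narrower range. It was at 368 CPM in Foxp3-negative CD4, 293 CPM in Ccl5-poor CD8, 130 CPM in Foxp3-positive and 119 CPM in Ccl5-rich CD8 barcodes, the last 2 overlapping. The CD4-Cre pancreas had 311, 240, 97.2 and 143 CPM, so here Foxp3-positive barcodes were lowest, with no overlap. In lymph node, Tcf7 did not separate CD8 barcodes by Ccl5, with 231 against 255 CPM in control and 190 against 200 CPM in CD4-Cre, the intervals overlapping in each. Foxp3-negative CD4 barcodes stood at 290 and 260 CPM, above the Ccl5-poor CD8 barcodes without overlap, and Foxp3-positive barcodes were lowest, at 145 and 118 CPM.

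Satb1 and Bach2 were also lowest in Ccl5-rich CD8 cells of pancreas. In control and CD4-Cre pancreas, Satb1 was at 368 and 379 CPM in Foxp3-negative CD4, 257 and 295 CPM in Ccl5-poor CD8, 126 and 130 CPM in Foxp3-positive and 93.4 and 91.9 CPM in Ccl5-rich CD8 barcodes. Bach2 in the same order was at 81.3 and 84.3, 80.8 and 72.0, 36.6 and 33.3, and 16.7 and 18.4 CPM, the lowest values resting on 23 and 26 UMIs. For both genes the intervals of the 2 low classes overlapped.

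Foxp1 varied least. Its highest subset exceeded its lowest by 2.34 and 1.96 times in pancreas control and CD4-Cre and by 1.52 and 1.37 times in lymph node. In lymph node its level in Foxp3-positive barcodes, 238 CPM in control and 250 CPM in CD4-Cre, overlapped that in Foxp3-negative CD4 barcodes, 258 and 247 CPM.

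Il7r had a different order in each tissue. In pancreas it was highest in Foxp3-negative CD4 barcodes (688 CPM in control, 760 CPM in CD4-Cre), then in Ccl5-poor CD8 (462 and 502 CPM), Ccl5-rich CD8 (233 and 289 CPM) and Foxp3-positive barcodes (211 and 235 CPM), the last 2 overlapping. In lymph node it was highest in the Ccl5-rich CD8 barcodes, at 431 CPM in control (23 barcodes) and 372 CPM in CD4-Cre (69 barcodes), followed by 350 and 277 CPM in Foxp3-negative CD4, 301 and 253 CPM in Ccl5-poor CD8 and 113 and 80.9 CPM in Foxp3-positive barcodes. The interval of the first class in lymph node control overlapped that of the second; with CD4-Cre it did not.

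**Figure D1:**
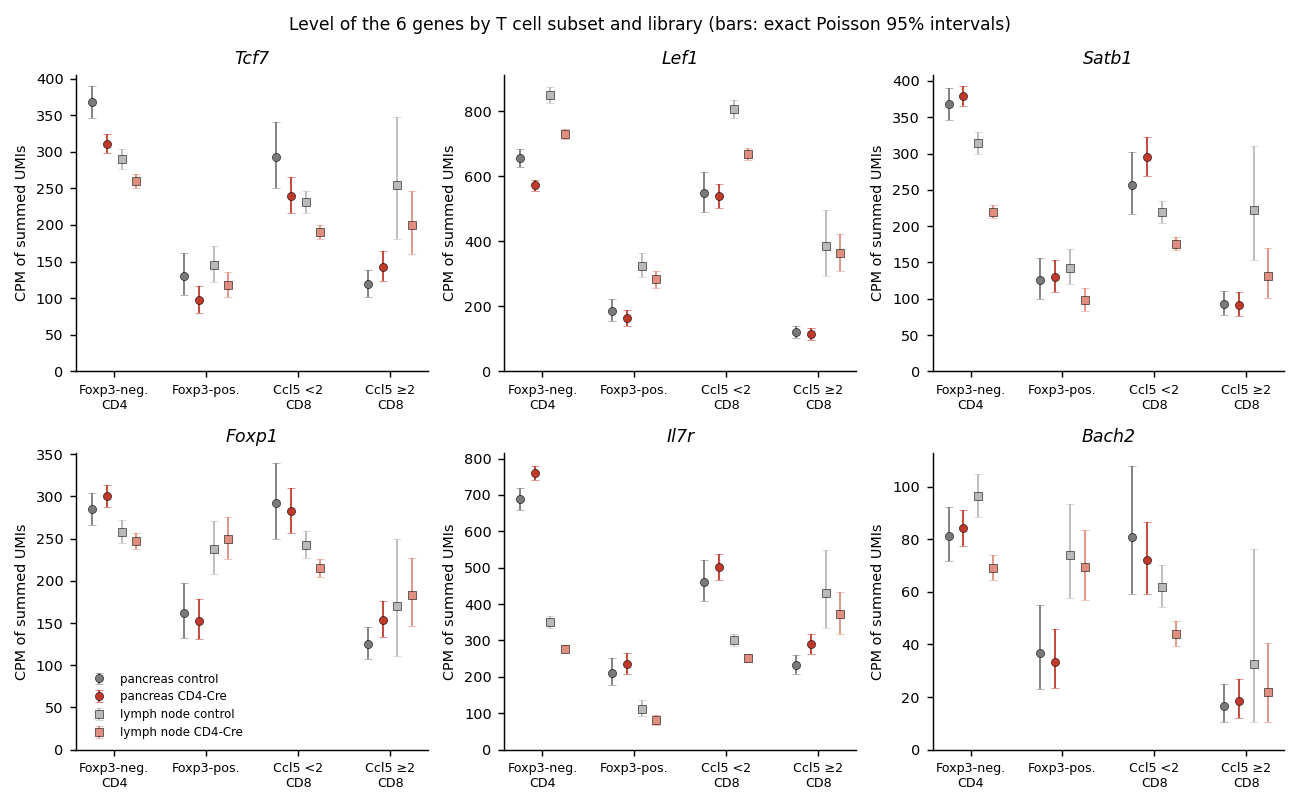
Level of each gene (CPM of summed UMIs, linear axis from 0) in 4 T cell subsets of the 4 libraries; points are 1 library each and bars are exact Poisson 95% intervals. Lef1 falls from 655 to 120 CPM across pancreas control subsets, while Foxp1 stays between 125 and 292 CPM there and Il7r peaks in Ccl5-rich CD8 barcodes in lymph node.

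Outside the T class, the genes parted. In pancreas B cells of control and CD4-Cre, Tcf7 (9.11 and 5.16 CPM), Lef1 (16.9 and 13.1 CPM) and Il7r (10.2 and 10.7 CPM) were near the floor, whereas Foxp1 (459 and 478 CPM) and Bach2 (176 and 178 CPM) were above every T subset of both pancreas libraries. Satb1 in B cells, at 189 and 188 CPM, lay between the high and the low T subsets. NK cells held 219 and 183 CPM of Satb1 and 145 and 126 CPM of Il7r. Il7r reached 1303 and 1726 CPM in 23 and 48 barcodes of group 2 innate lymphoid cells, which are known to depend on interleukin-7. In macrophages, monocytes and neutrophils together, Tcf7, Lef1 and Bach2 did not exceed 17.0 CPM.

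Detection per cell was compared after thinning every barcode to 1000 UMIs. Lef1 was seen in 41.6% and 38.0% of pancreas CD4-only barcodes (control and CD4-Cre) and in 18.0% and 27.7% of CD8-only barcodes; in lymph node the shares were 55.6% and 49.6% for CD4-only and 53.1% and 45.8% for CD8-only. Without thinning, the CD8-only shares were 42.0%, 59.6%, 93.3% and 91.9%. Pancreas B cells, which should lack the gene, gave 0.908% and 1.48% after thinning at median depths of 3577.5 and 3424 UMIs before it, so the T cell shares are above the background of free RNA. Il7r was seen in 41.1% and 44.8% of pancreas and 26.6% and 19.8% of lymph node CD4-only barcodes, against 19.8%, 19.4%, 12.5% and 7.84% of Foxp3-positive barcodes and 0.454% and 0.701% of pancreas B cells.

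Counting how many of the 6 genes each thinned barcode held gave the same split cell by cell. Foxp3-negative CD4 barcodes of pancreas control held a mean of 1.81 of the 6 genes, Ccl5-poor CD8 barcodes 1.60, Foxp3-positive 0.760 and Ccl5-rich CD8 0.556. At least 3 of the 6 were present in 28.2%, 21.5%, 2.48% and 3.07% of these barcodes, and none in 15.7%, 16.9%, 47.1% and 59.4%. With CD4-Cre the pancreas means were 1.78, 1.53, 0.806 and 0.703. Lymph node subsets differed less, with means of 1.67, 1.49, 1.03 and 1.39 in control and 1.43, 1.24, 0.854 and 0.986 in CD4-Cre.

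**Figure D2:**
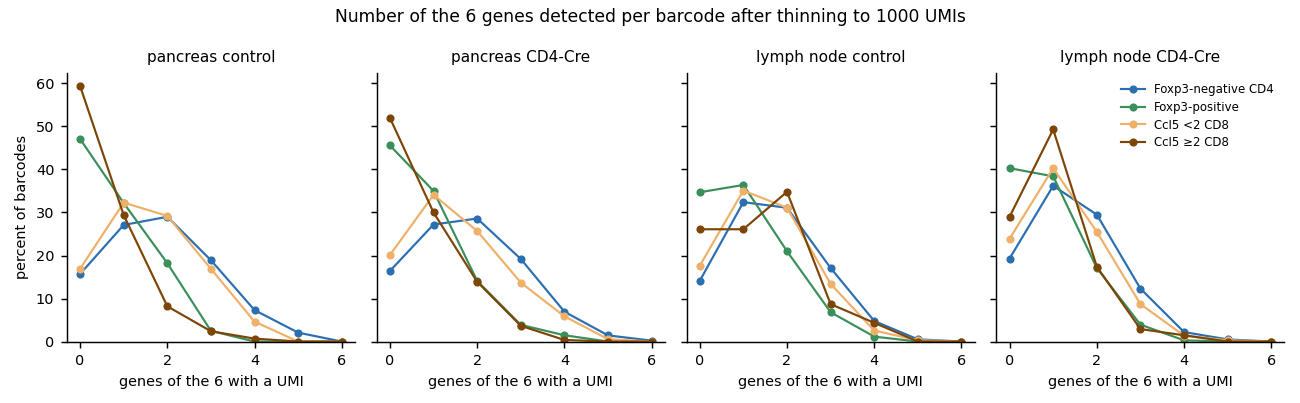
Percent of barcodes (vertical axis) with 0 to 6 of the member genes detected (horizontal axis) after thinning to 1000 UMIs, for 4 T cell subsets in each library. In pancreas control 59.4% of Ccl5-rich CD8 barcodes hold none of the 6, against 15.7% of Foxp3-negative CD4 barcodes.

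The Ccl5 contrast was then measured inside each library. A gene was called when it differed by at least 0.32 on the log2 scale, its interval left out 0 and it had 100 or more UMIs over both sides. In pancreas control, Ccl5-rich CD8 barcodes were lower than Ccl5-poor ones by all 6 log2 ratios: −2.28 for Bach2, −2.19 for Lef1, −1.46 for Satb1, −1.30 for Tcf7, −1.22 for Foxp1 and −0.99 for Il7r. Every interval lay below 0 and 5 genes were called lower, where 7.50% of all tested genes were; Bach2 fell short of the call with 69 UMIs. In pancreas CD4-Cre all 6 were called lower, against a background of 9.38%, from −2.24 for Lef1 to −0.75 for Tcf7. The median over the 6 was −1.38 and −1.28, beside 0.24 and 0.16 over all genes with 100 or more UMIs. TMM scaling shifted these pancreas ratios by −0.1572 and −0.1483 and turned none. A narrower naming of T clusters, which kept only 32 of the 295 and 50 of the 274 Ccl5-rich barcodes, gave medians of −0.78 and −0.32 and put Il7r at 0.03 and 0.14.

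Lymph node gave a split result. In control, Lef1 was lower in Ccl5-rich CD8 barcodes (log2 ratio −1.06, interval −1.46 to −0.69) and Il7r higher (0.52, interval 0.14 to 0.87), so 1 of 6 was called lower, where 3.95% of genes were, and 1 higher, where 4.24% were. In CD4-Cre, Lef1 (−0.88), Satb1 (−0.41) and Bach2 (−1.0, from 10 UMIs on the Ccl5-rich side) were called lower against a background of 5.26%, and Il7r (0.56, interval 0.32 to 0.79) higher against 4.18%. Tcf7 did not differ beyond its interval in either library, at 0.14 (−0.36 to 0.60) and 0.08 (−0.24 to 0.38). Satb1 in control was at 0.01 and went to −0.10 with TMM scaling. Lef1 was called lower in all 4 libraries, while Il7r was lower in the 2 pancreas libraries and higher in the 2 lymph node libraries. The difference between tissues was not tested. The tissues were clustered separately, and in each most Ccl5-rich CD8 barcodes lay in 1 cluster, 68.8% and 73.7% in cluster 14 of pancreas and 78.3% and 79.7% in cluster 15 of lymph node. Cluster 14 of pancreas was led by Gzmk, Cd8b1, Cd8a and Ccl5. Cluster 15 of lymph node was led by Trgv2, Ccl5, Tcrg-V1, Ctla2a and Trdc, among them gamma-delta receptor genes. Whether the 2 clusters hold the same kind of cell was not tested.

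The lists of other genes were chosen with earlier results of these data known, so counts from them are not independent support. For these lists, higher or lower means an interval off 0 with 20 or more UMIs over both sides. By that measure 16.9% of all genes were higher and 5.23% lower in Ccl5-rich CD8 barcodes of pancreas control, 20.2% and 8.14% in pancreas CD4-Cre, 3.78% and 2.38% in lymph node control, and 4.9% and 4.37% in lymph node CD4-Cre. Of 22 measured effector genes, 22 were higher in Ccl5-rich CD8 barcodes of pancreas control, as were 21 of 21 in CD4-Cre; granzyme A (Gzma) had log2 ratios of 7.18 and 8.26. Of the 19 naive and quiescence genes, 12 were lower in each pancreas library, with 0 and 3 higher. Ccr7, the lymph node homing receptor, was at −3.08 and −2.11, and Pik3ip1, an inhibitor of PI3 kinase, at −2.66 and −2.58. In lymph node the same list was mixed, with 4 higher and 6 lower in control and 2 higher and 8 lower in CD4-Cre: Id3, an inhibitor of E proteins, was higher (1.72 and 1.19), as was the costimulatory receptor Cd28 (0.75 and 1.01), whereas Igfbp4 was lower (−2.84 and −3.34).

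On the list for interleukin-7 receptor signalling, Cish, a Stat5 target that restrains cytokine signalling, was higher in Ccl5-rich CD8 barcodes of pancreas (3.76 in control, 3.99 in CD4-Cre). Il7r was lower there. Of the 12 genes on that list, 4 were higher and 1 lower in pancreas control, and 4 higher and 2 lower in CD4-Cre. The survival gene Bcl2 was higher in pancreas control (0.55, interval 0.16 to 0.95) and in lymph node control (0.61, interval 0.15 to 1.05), while Il7r was lower in the first and higher in the second. Markers of other cells also differed by Ccl5. The summed NK list was at 146 CPM in Ccl5-rich (4 of 5 genes detected, Klrb1c at 0) and 7.03 CPM in Ccl5-poor barcodes (1 of 5) of pancreas control, at 102 CPM (3 of 5, Klrb1c and Klra8 at 0) and 7.07 CPM (4 of 5, Klra8 at 0) in pancreas CD4-Cre, and at 32.7 and 0.257 CPM and 39.7 and 0.504 CPM in lymph node. The myeloid list was at 40.6 CPM (8 of 10) against 10.5 CPM (3 of 10) in pancreas control and at 28.3 CPM (5 of 10) against 15.4 CPM (8 of 10) in CD4-Cre. The B list was at 20.3 CPM (7 of 8, Pax5 at 0) against 26.4 CPM (3 of 8) and at 84.1 CPM (7 of 8, Pax5 at 0) against 30.2 CPM (4 of 8). In the Ccl5-rich CD4-Cre pool 1 barcode gave 52 of 119 B UMIs. Without the top barcode of each pool the CD4-Cre levels were 48.1 against 29 CPM. The part of these genes in the Ccl5 contrast was not tested.

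Finer Ccl5 steps in pancreas showed that Il7r and Tcf7 did not follow Lef1. Lef1 stood at 549 CPM in control barcodes with no Ccl5 UMI, 50.2 CPM at 2 to 9 UMIs, 196 CPM at 10 to 29 and 124 CPM at 30 or more. The CD4-Cre values were 558, 208, 118 and 100 CPM, so Lef1 was low from 2 Ccl5 UMIs upward. Il7r was at 441, 128, 537 and 217 CPM in control and 499, 338, 507 and 235 CPM in CD4-Cre. Barcodes with 10 to 29 Ccl5 UMIs (31 and 45 barcodes) thus held as much Il7r as those with none, with overlapping intervals, and those with 30 or more held less. Tcf7 had 284, 173, 256 and 95 CPM in control and 231, 302, 240 and 100 CPM in CD4-Cre. Bach2 at 10 to 29 UMIs was already at 17.1 and 13.1 CPM, from 76.8 and 70.3 CPM with no Ccl5. Levels at 2 to 9 UMIs rest on 28 and 26 barcodes.

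**Figure D3:**
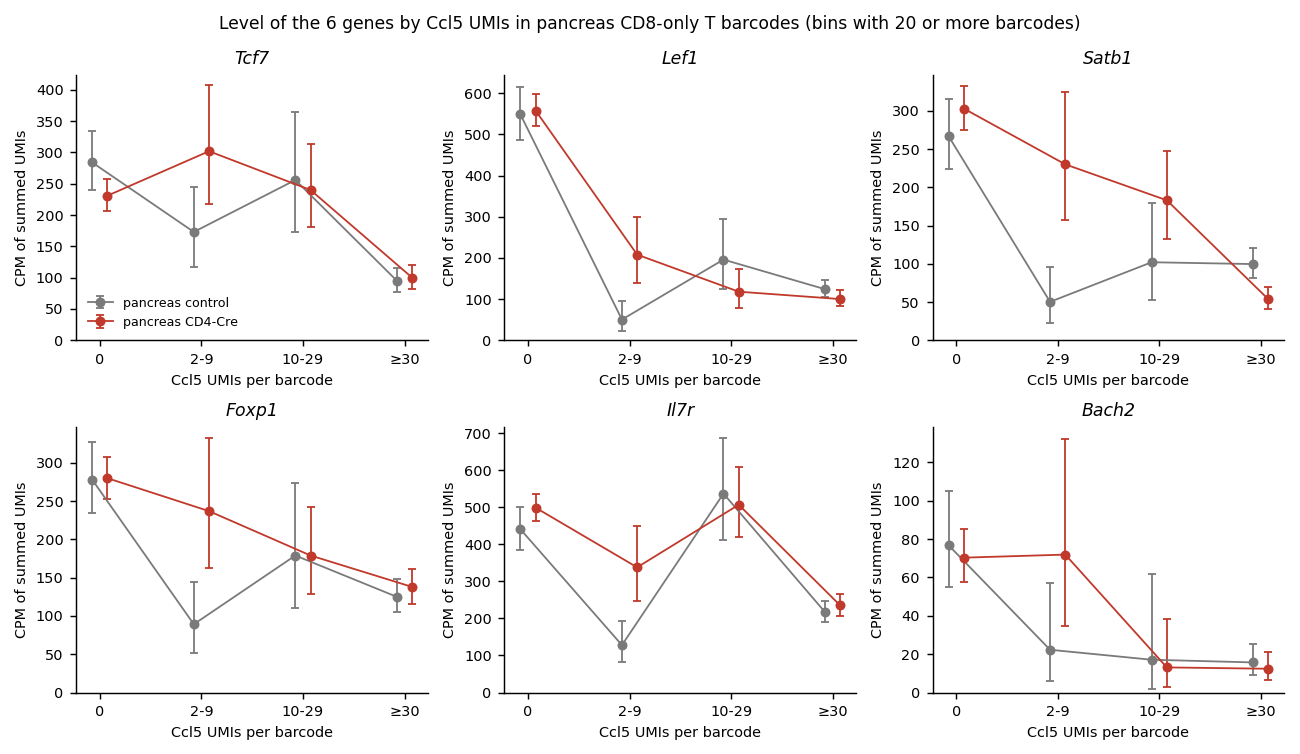
Level of each gene (CPM of summed UMIs) against the Ccl5 UMIs of the barcode in pancreas CD8-only T barcodes, for control and CD4-Cre; bars are exact Poisson 95% intervals and only steps with 20 or more barcodes in the library are drawn. Il7r and Tcf7 at 10 to 29 Ccl5 UMIs are near their level at 0, and Lef1 and Bach2 are not.

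Foxp3-positive T barcodes held less of most members than Foxp3-negative CD4-only barcodes of the same library. In pancreas control all 6 were called lower, against 7.0% of all genes, and so were all 6 in pancreas CD4-Cre, against 7.22%. The log2 ratios in control and CD4-Cre were −1.82 and −1.80 for Lef1, −1.70 and −1.69 for Il7r, −1.55 and −1.55 for Satb1, −1.50 and −1.68 for Tcf7, −1.15 and −1.34 for Bach2 and −0.81 and −0.97 for Foxp1. In lymph node 5 of 6 were called lower in control, against 6.46%, and 4 of 6 in CD4-Cre, against 5.82%. Il7r (−1.63 and −1.78), Lef1 (−1.39 and −1.37), Satb1 (−1.14 and −1.16) and Tcf7 (−1.0 and −1.14) were lower in both. Foxp1 was at −0.12 (−0.33 to 0.08) and 0.02 (−0.14 to 0.17), and Bach2 at −0.38 (−0.76 to −0.02) and 0.01 (−0.30 to 0.30). TMM scaling shifted the Foxp3 ratios by −0.1916 to −0.2846, which put lymph node CD4-Cre Foxp1 at −0.21 and Bach2 at −0.22. Foxp1 and Bach2 therefore had a smaller deficit in Foxp3-positive cells of lymph node than of pancreas; the difference between tissues was not tested.

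The Foxp3-positive class carried its own markers. Higher and lower again mean an interval off 0, which 20.3%, 25.4%, 17.6% and 22.5% of all genes passed upward and 5.28%, 6.75%, 6.35% and 6.63% downward in pancreas control, pancreas CD4-Cre, lymph node control and lymph node CD4-Cre. All 11 regulatory genes were higher in it in each of the 4 libraries, led by Il2ra, the interleukin-2 receptor alpha chain, with log2 ratios of 5.26, 4.16, 4.30 and 4.73 in that order. Il7r was low in the same cells, and 7, 8, 9 and 9 of the 12 genes listed for interleukin-7 receptor signalling were higher and 0, 2, 1 and 1 lower. Which receptor acts on these 12 genes was not tested. Cish was at 1.70, 1.37, 1.79 and 2.18. Within the naive and quiescence list, 11 to 13 of 19 genes were lower, with Igfbp4 from −3.98 to −2.46, while Id3 was higher in all 4 libraries (0.94, 0.92, 0.59 and 1.37). Between 52.1% and 62.7% of Foxp3-positive barcodes were CD4-only and 4.78% to 7.44% CD8-only, the others having UMIs of both or neither. In the pancreas control and CD4-Cre B cells 0.451% and 0.31% had a Foxp3 UMI, against 5.86% and 5.66% of T barcodes. Beside the Foxp3-negative CD4 barcodes, the summed NK list was at 46.1 against 4.9 CPM in pancreas control (5 of 5 genes detected in both) and at 30.6 CPM (4 of 5, Klra8 at 0) against 9.61 CPM (5 of 5) in CD4-Cre, and none of its genes was detected in Foxp3-positive barcodes of lymph node. The B list was at 31.8 CPM (4 of 8, Ms4a1 and Pax5 among those at 0) against 41.5 CPM in pancreas control and at 87.3 CPM (7 of 8, Fcer2a at 0) against 9.19 CPM in CD4-Cre. In that CD4-Cre Foxp3-positive pool 1 barcode gave 67 of 97 B UMIs. Without the top barcode of each pool the B list was at 11.2 against 25.9 CPM in pancreas control and 27.9 against 8.63 CPM in CD4-Cre. For the NK list these levels were 31.1 against 4.58 CPM and 13.6 against 6.09 CPM. In lymph node the B list was at 28.5 against 3.12 CPM and 18.5 against 3.21 CPM, with 3 of 8 genes detected and Ms4a1 and Pax5 at 0 in both Foxp3-positive pools. Dissociation-stress genes were at 2572 CPM (6 of 8, Hspa1a and Hspa1b at 0) against 1989 CPM in pancreas control, 2061 against 1995 CPM in CD4-Cre, and 514 against 369 CPM and 494 against 280 CPM in lymph node. The part of these genes in the Foxp3 contrast was not tested.

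**Figure D4:**
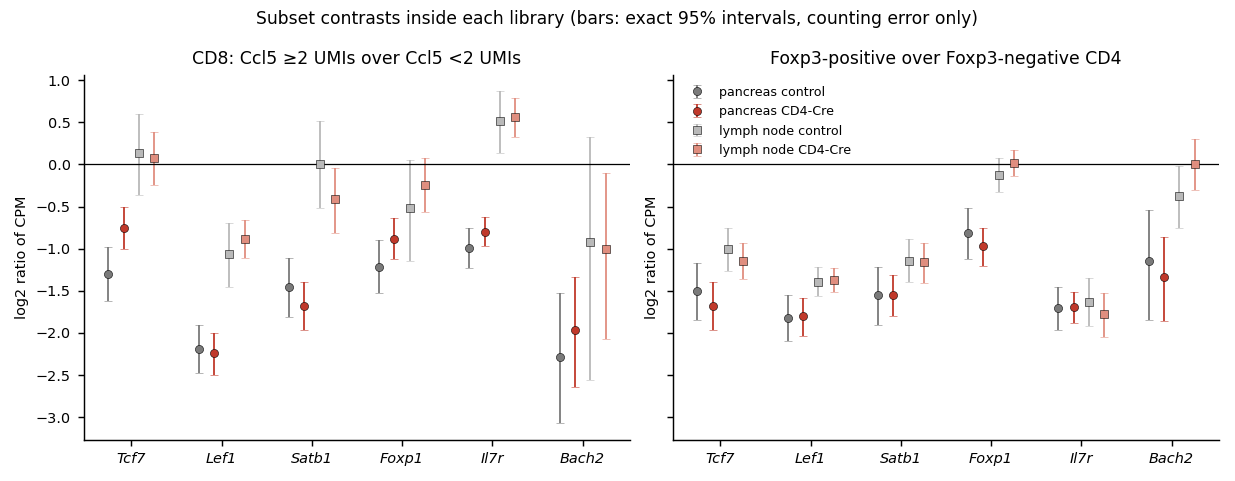
Log2 ratio of CPM for each gene inside each library: CD8-only barcodes with 2 or more Ccl5 UMIs over those with fewer (left) and Foxp3-positive over Foxp3-negative CD4-only barcodes (right); bars are exact 95% intervals of counting error and the line marks 0. In the left panel Il7r lies below 0 in pancreas and above 0 in lymph node, and in the right panel Foxp1 is near 0 in lymph node only.

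Between genotypes, the pancreas CD8-only barcodes held more of these genes with CD4-Cre. Lef1 was at 337 CPM with CD4-Cre and 245 CPM in control (log2 ratio 0.46, interval 0.30 to 0.62), Satb1 at 198 and 141 CPM (0.49, 0.28 to 0.70), Il7r at 401 and 300 CPM (0.42, 0.28 to 0.56) and Foxp1 at 221 and 174 CPM (0.35, 0.16 to 0.54). These 4 of 6 were called higher, where 5.64% of all genes were. Tcf7 (194 and 170 CPM; 0.19, −0.01 to 0.39) and Bach2 (46.4 and 35.4 CPM; 0.39, −0.03 to 0.83) had intervals that include 0. The median over the 6 was 0.41, beside −0.02 over all genes; it was 0.63 with equal weight per barcode, and 0.01 under the narrower naming of T clusters that leaves out most Ccl5-rich barcodes.

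The share of Ccl5-rich barcodes also differed between the pancreas libraries. It was 69.2% of CD8-only barcodes in pancreas control (295 of 426, exact interval 64.6 to 73.6%) and 43.3% with CD4-Cre (274 of 633, 39.4 to 47.2%); after thinning to 1000 UMIs it was 64.1% and 39.3%. Among pancreas B cells 1.02% and 0.31% had 2 or more Ccl5 UMIs. Within Ccl5-poor barcodes the genotype median was −0.03 and 0 of 6 genes were called, against 6.28% of genes higher and 3.21% lower; Lef1 was at 548 CPM in control and 539 CPM with CD4-Cre. Within Ccl5-rich barcodes the median was 0.20 and again 0 of 6 were called, against 5.26% higher and 5.71% lower, with Il7r at 0.31 (0.10 to 0.53) and Foxp1 at 0.30 (0.00 to 0.59); the median was 0.57 when barcodes were thinned to 1000 UMIs before summing. When both libraries were given the control's proportion of the 2 classes, the median went from 0.41 to 0.06, with Lef1 at −0.04, Bach2 at −0.06 and Il7r at 0.23. By cluster, the ratios within cluster 3, which holds most Ccl5-poor barcodes, had a median of −0.02 (103 and 287 barcodes). There 0 of 6 intervals were off 0, the widest being that of Bach2, from −0.63 to 0.69. Shares over all genes were not computed within clusters. Cluster 14, which holds most Ccl5-rich ones, also had a median of −0.02 (214 and 216 barcodes), with Il7r higher (0.29, 0.02 to 0.56) and Satb1 lower (−0.49, −0.97 to −0.01). Il7r in cluster 3, at 0.11 (−0.11 to 0.33), overlapped its value in cluster 14. The part of the Ccl5-rich share in the genotype ratios was not tested.

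Other genes in the same pancreas CD8-only cells split by list, where 6.7% of all genes were higher and 9.38% lower by intervals off 0. Of 19 naive and quiescence genes 12 were higher and 1 lower with CD4-Cre, led by Pik3ip1 (1.02), Igfbp4 (0.94) and Ccr7 (0.82), with Bcl11b lower (−0.46). Of 22 measured effector genes 0 were higher and 19 lower, led by S1pr5 (−2.95), Klrg1 (−2.15) and Cx3cr1 (−2.14), markers of terminal effector cells. Both lists were chosen with earlier results of these data known, so these counts are descriptions. Interleukin-7 receptor signalling was divided, with Stat5a (0.79) and Il2rg (0.30) higher and Cish (−1.42) and Jak1 (−0.13) lower among 12. Markers of other cells also differed. The summed NK list was at 105 CPM in control (4 of 5 genes detected, Klrb1c at 0) and 52.2 CPM with CD4-Cre (4 of 5, Klra8 at 0), and the B list at 22.1 and 55.9 CPM (7 of 8 in each, Pax5 at 0). In CD4-Cre 52 of the 166 B UMIs came from 1 barcode. Without the top barcode of each pool the B list was at 20.6 and 38.6 CPM. Exocrine genes were at 169 and 3084 CPM (7 of 7 in each), 8849 of the 9162 UMIs in CD4-Cre coming from 1 barcode. With barcodes of 10 or more exocrine or plasma marker UMIs left out, the median was 0.40. The part of the NK and B genes in the result was not tested.

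In pancreas CD4-only barcodes the pooled genotype ratios were under the size a call needs, and some clusters within them passed it. With CD4-Cre, Tcf7 was at 292 CPM against 343 CPM (log2 ratio −0.23, interval −0.34 to −0.13), Lef1 at 536 against 604 CPM (−0.17, −0.25 to −0.10) and Il7r at 710 against 634 CPM (0.16, 0.09 to 0.24). Satb1, Foxp1 and Bach2 had intervals that include 0. With 0 of 6 called, against 5.49% of genes higher and 5.06% lower, the 3 ratios off 0 stood at −0.23 to 0.16. By cluster, Il7r was at 0.55 (0.38 to 0.71) in cluster 1, the largest (225 and 620 barcodes), at 0.55 (0.10 to 1.01) in cluster 12 and at 0.21 (0.09 to 0.34) in cluster 0. Tcf7 was at −0.41 (−0.66 to −0.15) in cluster 6, −0.35 in cluster 0 and −0.26 in cluster 1, but at 0.67 (0.14 to 1.24) in cluster 9, where Satb1 was at 2.72 (0.02 to 8.12) from 1 and 15 UMIs. Lef1 was at −0.20, −0.24 and −0.23 in clusters 0, 1 and 6, with intervals below 0. Of all genes 9.27% were higher and 7.3% lower by intervals off 0. The effector list again stood lower, with 16 of 22 genes lower and 0 higher, among them Klrg1 (−1.31) and S100a4 (−1.11), and the naive list was mixed (7 higher, 5 lower of 19; Id3 0.77, Bcl11b −0.62). Foxp3-positive barcodes of pancreas had 0 of 6 called, against 5.58% higher and 5.06% lower, with ratios from −0.42 for Tcf7 (130 CPM in control, 97.2 CPM with CD4-Cre) to 0.15 for Il7r and all intervals spanning 0. In these barcodes a Tcf7 difference of up to −0.85 was within the interval.

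Lymph node T cells held less of most members with CD4-Cre. In CD4-only barcodes Satb1 was at 210 CPM with CD4-Cre and 297 CPM in control (log2 ratio −0.50, interval −0.59 to −0.42), Bach2 at 68.3 and 93.3 CPM (−0.45, −0.60 to −0.30) and Il7r at 261 and 328 CPM (−0.33, −0.41 to −0.25). These 3 of 6 were called lower, where 10.1% of all genes were. Lef1 (−0.21) and Tcf7 (−0.15) had intervals below 0 and were not called, and Foxp1 was level at 249 and 253 CPM (−0.02, −0.11 to 0.06). TMM scaling raised the lymph node CD4-only ratios by 0.0884 and the CD8-only ratios by 0.1256, the median gene having been at −0.07 and −0.10. Relative to that scaling, Satb1 was at −0.41, Bach2 at −0.36, Il7r at −0.24, Lef1 at −0.12, Tcf7 at −0.06 and Foxp1 at 0.06, so Foxp1 changed sign, Il7r fell under the size a call needs and 2 of 6 (Satb1 and Bach2) stayed past it; the median went from −0.27 to −0.18. Without TMM scaling, the members' median was below 0 in all 9 CD4-only clusters with at least 50 barcodes in both libraries, from −0.54 to −0.08. In these clusters 0 members had an interval above 0. Shares over all genes were not computed within clusters. The clusters share the same libraries and are not replicates.

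In lymph node CD8-only barcodes all 6 intervals lay below 0. Bach2 was at 42.9 CPM with CD4-Cre and 60.9 CPM in control (−0.50, −0.74 to −0.26) and Satb1 at 174 and 220 CPM (−0.34, −0.46 to −0.22), and these 2 of 6 were called lower, where 11.6% of genes were. Tcf7 (191 and 232 CPM) and Lef1 (653 and 790 CPM) were both at −0.28, Il7r (259 and 306 CPM) at −0.24 and Foxp1 (214 and 240 CPM) at −0.17. Relative to TMM scaling the 6 ranged from −0.38 for Bach2 to −0.04 for Foxp1, with Satb1 at −0.22 and so under the size a call needs, and their median went from −0.28 to −0.15. The Ccl5-rich share was 3.33% in control and 4.71% with CD4-Cre, and the Ccl5-poor class alone had the same 2 genes called lower, Bach2 at −0.49 and Satb1 at −0.32, against 11.5%. In the Ccl5-rich class (23 and 69 barcodes) 0 of 6 were called, against 4.45% higher and 7.52% lower. Satb1 there was at −0.75 (−1.38 to −0.10) from 94 UMIs over both sides, under the number a call needs; TMM scaling raised these ratios by 0.2141 and turned Lef1 from −0.08 to 0.13.

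Among lymph node Foxp3-positive barcodes Satb1 was at 98.1 CPM with CD4-Cre and 143 CPM in control (−0.54, −0.88 to −0.20) and Il7r at 80.9 and 113 CPM (−0.48, −0.87 to −0.10), 2 of 6 called lower where 7.62% of genes were. The other 4 had intervals that include 0. The median of the 6, −0.25, was −0.66 with T cells taken from marker UMIs, which left 60 and 160 of the 177 and 357 barcodes. Satb1 was the gene called lower with CD4-Cre in CD4-only, CD8-only and Foxp3-positive barcodes of lymph node alike; relative to TMM scaling it was at −0.41, −0.22 and −0.46, the CD8-only value no longer past the size a call needs.

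Beside the members, the lymph node lists moved in both directions. By intervals off 0, 3.63% of all genes were higher and 16% lower in CD4-only barcodes, and 2.7% and 15.4% in CD8-only barcodes. In CD4-only barcodes 4 of 19 naive and quiescence genes were higher and 8 lower, with Dapl1 (0.34) and Igfbp4 (0.22) higher and Foxo1, the factor that drives Il7r transcription in T cells, at −0.41 and Ikzf1 at −0.35. In CD8-only barcodes 1 was higher (Igfbp4, 0.18) and 9 lower, led by Foxo1 (−0.46), Ikzf1 (−0.41) and Pik3ip1 (−0.40). Of the 12 interleukin-7 signalling genes 4 were lower and 0 higher in CD4-only barcodes (Bcl2l1 −0.55, Stat5b −0.32, Jak1 −0.17), and 4 lower and 2 higher in CD8-only (Stat5a −0.54, Pim1 −0.50, Socs1 0.20). Effector genes were lower for 8 of 15 measured in CD4-only barcodes, with S100a6 at −0.95 and Cxcr3 at −0.94. The lymph node libraries also differed in RNA quality, 1.01% of control barcodes and 9.39% of CD4-Cre barcodes having over 10% mitochondrial UMIs before they were left out, and in dissociation-stress genes, at 379 and 296 CPM in CD4-only barcodes (8 of 8 detected in each). With barcodes of at least 1000 genes and at most 5% mitochondrial UMIs, the medians were −0.27 in CD4-only and −0.28 in CD8-only barcodes, as in the full set. That filter acts on single barcodes and cannot address a difference that runs through a whole library. The part of RNA quality or dissociation stress in the result was not tested.

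**Figure D5:**
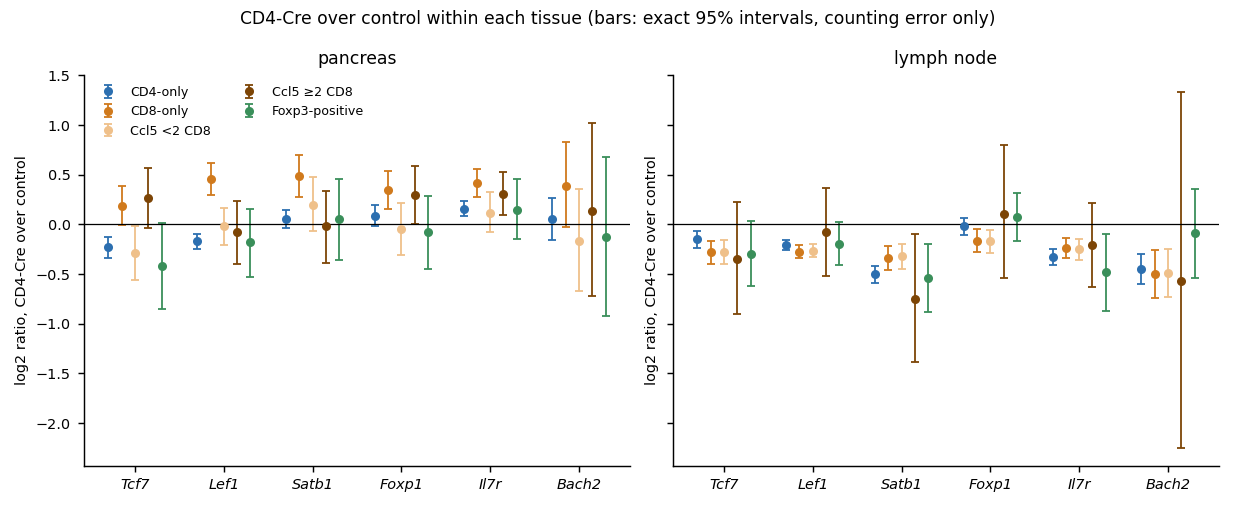
Log2 ratio of CPM, CD4-Cre over control, for each gene in 5 T cell subsets of pancreas (left) and lymph node (right); points are 1 library against 1 and bars are exact 95% intervals of counting error. CD8-only ratios lie between 0.19 and 0.49 in pancreas and between −0.50 and −0.17 in lymph node, and the pancreas Ccl5-poor ratios are spread around 0.

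Across the 16 pools of 4 subsets by 4 libraries, some members fell into pairs, and Lef1 and Il7r did not. Tcf7 and Satb1 were each other's nearest of 7160 genes (Pearson r 0.91 of log2 CPM with a pseudocount of 10), and so were Foxp1 and Bach2 (r 0.93). Genes like Lef1 included Wdr46 (0.95) and Atp1b1 (0.94), and Il7r was most like Klf2 (0.93), Chd7 (0.91) and Ppp2r5a (0.89). Il7r stood farthest from Bach2 (0.17) and Foxp1 (0.32) and nearer to Tcf7 (0.78) and Satb1 (0.76). The 16 pools share libraries and depth, so these values are descriptions.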

How the data were processed

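Single-cell RNA libraries were prepared with the 10x Genomics 5′ gene expression kit, per the labels' protocols, and the deposited matrices hold counts of UMIs per gene and barcode. The authors made them with Cell Ranger and mm10, per the submitters' processing notes, and the software version is 3.0.0, per the file headers; the annotation is not given in the sources used here. The 4 libraries listed 3059 to 6963 barcodes of at least 500 UMIs.

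Barcodes with at least 500 genes and at most 10% mitochondrial UMIs were kept, after removal of the highest simulated-doublet scores (0.8% per 1000 barcodes; 75 to 388 barcodes). They were clustered per tissue with scanpy 1.11.5 (2000 variable genes, 30 components, 15 neighbours, resolution 1). The naming rule first written, by highest mean marker score, placed Ccl5-rich CD8 clusters outside the T class; after the clusters were seen it was replaced for T cells by 6 or more of 8 T markers in the cluster, a Cd3 UMI in at least 90% of its barcodes and Ncr1 in under 50%. T clusters 5, 6, 10 and 11 of pancreas and 5 and 9 of lymph node were led by markers of other classes, so values by cluster and without them were also computed.

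UMIs were summed over the barcodes of each subset. Levels have exact Poisson intervals, ratios exact conditional binomial intervals and shares Clopper-Pearson intervals, all at 95%, and UMIs of 1 library are not independent animals. A call needs a log2 ratio past 0.32, an interval off 0 and 100 UMIs; background shares come from all genes with 100 UMIs. Genes of the lists are given at 20 UMIs or more, at most the 3 highest and 3 lowest with intervals off 0 per comparison being eligible to be named, and likeness is over genes with 500 UMIs. The functions were tested on simulated data. TMM (edgeR 4.0.16), DESeq2 1.42.0 size factors, other thresholds, filters, naming and thinning were the alternatives. The members and lists were chosen with earlier results of these data known. A gene that the likeness rule names for Lef1 is not reported here.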

Additional observations from a re-analysis of the deposited data

Results flagged for a closer look

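The genotype ratios had opposite signs in the 2 tissues for several members, with intervals off 0 on both sides. In CD4-only barcodes the log2 ratio of Il7r, CD4-Cre over control, was 0.16 in pancreas and −0.33 in lymph node. In CD8-only barcodes it was 0.46 and −0.28 for Lef1, 0.49 and −0.34 for Satb1, 0.35 and −0.17 for Foxp1, and 0.42 and −0.24 for Il7r. At the control's Ccl5 make-up the pancreas values for these genes were −0.04, 0.10, 0.14 and 0.23 in the same order. Relative to TMM scaling the lymph node values were −0.15, −0.22, −0.04 and −0.12. The other contrast with opposite signs was Il7r in Ccl5-rich over Ccl5-poor CD8 barcodes, at −0.99 and −0.80 in pancreas (control, then CD4-Cre) against 0.52 and 0.56 in lymph node (same order). The differences between tissues were not tested, since each group is 1 library and tissue cannot be told apart from age and cell selection.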

How the results depend on the processing

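No paired analysis was possible because each group is 1 library and the labels give no shared replicate numbers; for the same reason no replicate could be left out. Of 319 alternative values for the 19 medians over the members, 296 stayed inside the range used for the median and 23 left it. The range ran from the median of the members' lower limits to the median of their upper limits. It is not the counting error of the median itself. For the median at the control's Ccl5 make-up the width was borrowed from pancreas CD8-only barcodes. The sign changed in 13 of the 319 values, all inside the range and all for medians whose range held 0. For CD4-Cre over control they were those of pancreas Foxp3-positive, Ccl5-poor and Ccl5-rich CD8 barcodes, and that at the control's Ccl5 make-up. The pancreas Ccl5-rich median was 0.20, and −0.09 at a Ccl5 threshold of 10 UMIs. Also among them were the genotype median of lymph node Ccl5-rich CD8 barcodes and the Ccl5 contrast in lymph node control. For single genes the sign changed in 105 of 1822, and in 3 of these the interval in the report had left out 0. Some alternatives were chosen after seeing the data: those on T cluster naming, marker UMIs with Cst3 allowed, Ccl5 after thinning, foreign-led clusters and exocrine or plasma barcodes. Among these, only the T cluster naming moved a median outside its range.

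For CD4-Cre over control, the pancreas CD8-only median of 0.41 was 0.63 with equal weight per barcode and 0.01 (Lef1 −0.01) under the naming rule first written. The pancreas Ccl5-rich CD8 median of 0.20 was 0.57 with barcodes thinned to 1000 UMIs. In lymph node, the CD4-only median of −0.27 was −0.37 with T cells from marker UMIs, −0.18 with TMM, −0.18 with DESeq2 size factors and −0.34 thinned. The CD8-only median of −0.28 was −0.15 with TMM and −0.16 with DESeq2 size factors, the Ccl5-poor CD8 median −0.15 with either, and the Foxp3-positive median −0.66 with marker UMIs.

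For Ccl5-rich over Ccl5-poor CD8, the pancreas control median of −1.38 was −1.79 thinned and −0.78 (Il7r 0.03) under the first naming rule; that of CD4-Cre was −0.98 with marker UMIs and −0.32 (Il7r 0.14) under that rule. For Foxp3-positive over Foxp3-negative CD4, the pancreas CD4-Cre median of −1.61 was −1.16 with marker UMIs, −1.88 with TMM, −1.28 with equal weight, −1.33 thinned and −1.88 at 2 or more Foxp3 UMIs. The lymph node medians were −0.61 in control with marker UMIs and −1.51 in CD4-Cre at 2 or more Foxp3 UMIs. The marker rule barred any Cst3 UMI, which 47.6% to 53.4% of T barcodes had, and so kept fewer barcodes. With Cst3 allowed, no median left its range. The naming rule first written kept 32 and 50 of the 295 and 274 Ccl5-rich pancreas barcodes. Other causes were not tested. Depth limits Bach2 most: it had 23 and 26 UMIs in the Ccl5-rich pancreas classes and 5 and 10 in those of lymph node.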

Other observations

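Within the Ccl5-rich CD8 barcodes of pancreas, where 0 of the 6 members were called between genotypes, other genes of the naive and effector lists did differ, where 5.35% of all genes were higher and 6.11% lower by intervals off 0. Of 19 naive and quiescence genes 8 were higher and 2 lower with CD4-Cre: Id3 had a log2 ratio of 1.35 (interval 0.75 to 1.97), Dapl1 1.32 (0.75 to 1.92) and the homing receptor Ccr7 1.04 (0.61 to 1.48), while Igfbp4 was at −0.91 (−1.69 to −0.16). Of 22 measured effector genes 2 were higher and 10 lower, the lowest being S1pr5 (−2.38), Klrg1 (−1.58) and Cx3cr1 (−1.53), with granzyme K (Gzmk) higher at 0.36. These lists, too, were chosen with earlier results of these data known. The Ccl5-rich class differed in make-up. In control 41 of 295 barcodes (13.9%) lay in cluster 15 of pancreas, whose leading genes include Cx3cr1, S1pr5 and Klrg1. With CD4-Cre that cluster held fewer of them than cluster 25, which had 11 of 274 (4.01%). The part of this make-up in the ratios was not tested. The costimulatory receptor Tnfrsf9 was higher at 1.51 (0.97 to 2.08). Among lymph node Foxp3-positive barcodes Satb1 and Il7r were lower with CD4-Cre. There 3.65% of all genes were higher and 7.13% lower by intervals off 0. Of 19 naive and quiescence genes 2 were higher, Id3 (0.66, 0.38 to 0.95) among them, and 4 lower. Of 11 measured effector genes 0 were higher and 4 lower, among them S100a6 (−1.93) and Lgals1 (−1.37). Each value compares 1 library with 1.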
